A study of Saccharomyces cerevisiae with 4 samples.

Results

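The 56 genes described here encode the proteins of the small (40S) subunit of the cytosolic ribosome of budding yeast, from RPS0A to RPS31. They were chosen by systematic open reading frame (ORF) name among the 6207 ORF rows of the deposited table. They form 32 protein families, of which 24 have an A and a B copy (paralogues left by an ancient genome duplication) and 8 have a single gene. Values on each of the 4 arrays were present for 53 of them. RPS14A (YCR031C) and RPS19A (YOL121C) had no value, and RPS30A (YLR287C-A) had a value on array 3 alone.

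The study compared wild-type Saccharomyces cerevisiae cells under attack on their wall with untreated cells of the same cultures, at 24 °C in rich medium. The treated part had received 5 units/ml of Zymolyase 100T, a mix of enzymes that breaks down wall glucan, for 3 h. The strain is called wild type in the labels, with no further genotype. RNA of 2 cultures was hybridised on two-colour arrays with a dye swap, 4 arrays in all. The Cy3 dye marked treated RNA on arrays 1 and 3, the Cy5 dye did so on arrays 2 and 4, and the labels do not tie arrays to cultures.

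The deposited values were read as log2 ratios of treated and untreated RNA, since their base is not stated, and the numerator is not stated either. Signs were turned by the dyes to give all arrays 1 direction, with SLT2 positive. SLT2 (YHR030C) encodes the last kinase of the pathway that guards the wall. SLT2 had 2.14, 2.39, 2.18 and 2.31 on arrays 1 to 4. A positive value thus lies on the side of SLT2 and a negative value on the opposite side, and the labels do not settle which of the sides was raised by the treatment. Array medians lay near 0, so a ratio compares a gene with the typical ORF of its array and not with the amount of RNA in a cell. Where a mean ± SD is given, the SD is over 4 arrays from 2 cultures.

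As background, the small subunit binds the messenger RNA and pairs its codons with transfer RNA anticodons. Its proteins are made in equal numbers, and in budding yeast their genes are known to be among the most transcribed in growing cells and to be controlled together, through the factors Rap1, Fhl1, Ifh1 and Sfp1 and the kinases TORC1 and protein kinase A. Their transcripts are known to fall together in many stresses of this yeast. The head of the subunit contacts the transfer RNAs, the body holds the decoding site, and the platform lines the exit of the messenger RNA.

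Small subunit genes moved little after 3 h of wall digestion, and mostly to the side opposite to SLT2. The mean lay opposite to SLT2 for 50 of 53 genes, against 56.7% of all 4543 ORFs measured on 4 arrays. Their median mean was -0.13, a ratio of 0.914, against -0.03 for all ORFs. The means ran from -0.31 for RPS21A to 0.04 for RPS15, with an SD among genes of 0.07 against 0.35 among all ORFs. None of the 53 passed the test (limma with Benjamini-Hochberg adjustment over 4543 ORFs, adjusted p under 0.05), on the side of SLT2 (4.56% of all ORFs) or opposite to it (1.39%). Unadjusted, p was under 0.05 for 1 gene, RPS21A, against 19.3% of all ORFs. The 95% intervals of limma, the wider of those from the 2 possible pairings of arrays into cultures, reached at their widest down to -0.62 (RPS25B) and up to 0.38 (RPS20).

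The shift was not the same on every array. The median of the 53 genes was 0.16 on array 1, -0.20 on array 2, -0.13 on array 3 and -0.31 on array 4, while that of all ORFs stayed between -0.05 and 0.04. Of the 53 genes, 40 lay above 0 on array 1, 4 on array 2, 10 on array 3 and 1 on array 4. The SD of the array medians, 0.20, was larger than the shift itself. Without array 1 the median was -0.20, and without array 3 it was -0.05, each from a fit that weighs both dye orientations equally. Without array 4 it was -0.08.

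**Figure D1:**
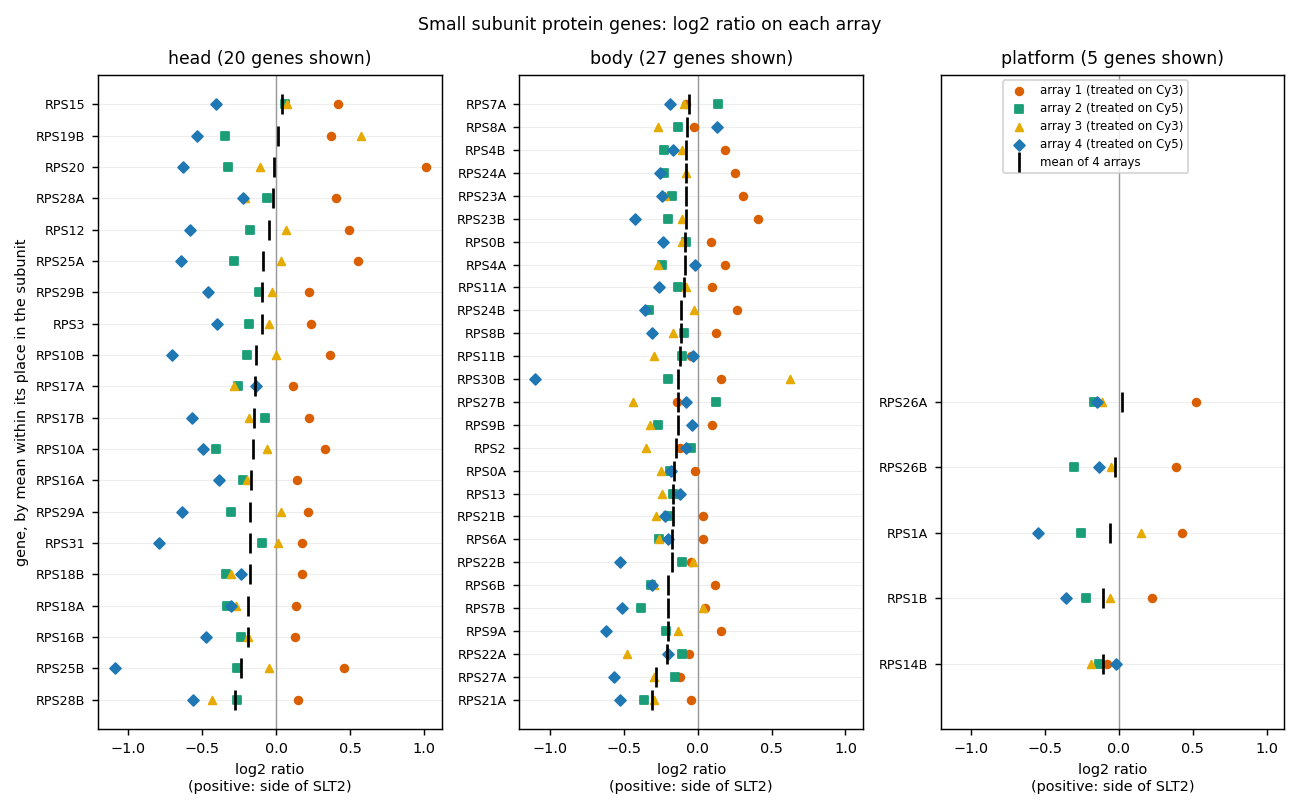
Log2 ratio of each small subunit gene on each array (coloured points, x axis; positive is the side of SLT2) with the mean of 4 arrays (black bar), in panels for the head, body and platform of the subunit, with 52 of the 53 genes shown. Array 1 lies to the right for most genes and array 4 to the left for many, while the means stay between -0.31 and 0.04.

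**Figure D2:**
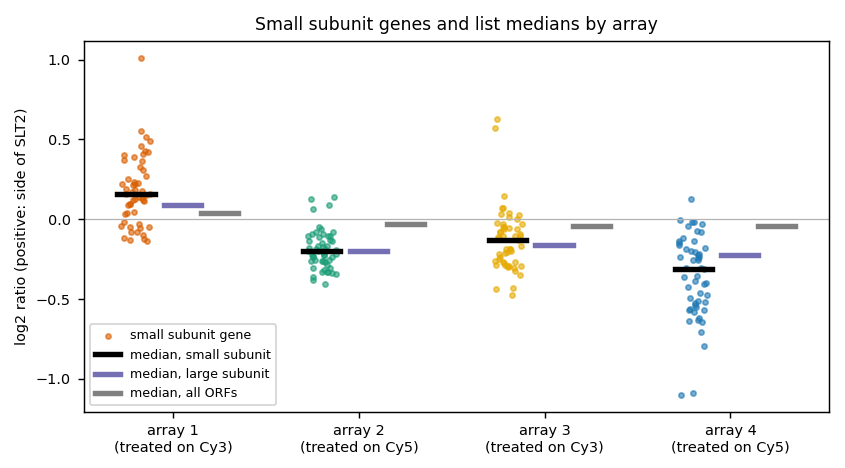
Log2 ratios of the 53 small subunit genes (points, y axis) on each array (x axis), with their median and the medians of 76 large subunit genes and of all ORFs (horizontal bars). The small subunit median runs from 0.16 on array 1 to -0.31 on array 4, and the large subunit median has the same sign on each array.

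The genes were divided by the place of their protein in the subunit. Body genes had means opposite to SLT2 in 27 of 27 cases, with a median of -0.13, head genes in 19 of 21, with a median of -0.14, and platform genes in 4 of 5, with a median of -0.06. A value opposite to SLT2 on every array was seen for 9 of 53 genes (17.0%), close to the 15.3% of all ORFs. By place, 8 of these 9 were body genes, 1 a platform gene and 0 head genes. The median on array 1 was 0.22 for head genes and 0.05 for body genes. A difference between places was not tested. Values on the side of SLT2 on every array were seen for 0 of 53, against 13.1% of all ORFs. Families found in all domains of life (23 measured genes) had a median of -0.13, and the other families (30 genes) -0.12.

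RPS21A (YKR057W) had the lowest mean of the 53. Rps21 is a small protein of the body that binds Rps0 and is needed to mature the RNA of the subunit. The gene had -0.05, -0.36, -0.30 and -0.52 on arrays 1 to 4. All 4 values were opposite to SLT2, array 1 being close to 0. Its mean was -0.31 ± 0.20 (unadjusted p = 0.0396, adjusted p = 0.227 in limma, n = 2 cultures), and 384 of the 4543 ORFs had lower means. The adjusted p was 0.0133 when array 1 was paired with 4 and array 2 with 3.

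Next came RPS27A (YKL156W), which encodes a zinc-binding protein of the body and had -0.12, -0.15, -0.30 and -0.57. RPS28B (YLR264W) followed, with 0.15, -0.26, -0.43 and -0.56. RPS25B (YLR333C), of the head, had 0.46, -0.26, -0.05 and -1.09. For RPS27A every array was opposite to SLT2, whereas RPS28B and RPS25B had the sign of SLT2 on array 1. Their means were -0.28 ± 0.20, -0.28 ± 0.31 and -0.23 ± 0.64, with adjusted p in limma of 0.289, 0.345 and 0.514. In that pairing RPS27A (adjusted p = 0.0214) and RPS28B (adjusted p = 0.0254) passed in limma together with RPS21A, which makes 3 of 53 members opposite to SLT2 against 13.9% of all ORFs. RPS22A (YJL190C), whose protein lies in the body, was the fifth lowest, with -0.06, -0.10, -0.48 and -0.20 and a mean of -0.21 ± 0.19, and all its values were opposite to SLT2.

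At the other end, RPS15 (YOL040C) had 0.42, 0.06, 0.07 and -0.41 and a mean of 0.04 ± 0.34. Rps15 is a head protein needed to export the subunit from the nucleus. RPS26A (YGL189C), of the platform, where its protein touches the messenger RNA on its way out, had 0.52, -0.17, -0.12 and -0.15 (mean 0.02 ± 0.33). Array 1 alone was positive, and the other 3 arrays were negative and close together. RPS19B (YNL302C) had 0.37, -0.34, 0.57 and -0.54 (mean 0.01 ± 0.54), positive on both arrays with treated RNA on Cy3 and negative on both with it on Cy5. RPS19 is also known from its human counterpart, which is mutated in Diamond-Blackfan anaemia.

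Among the single-copy genes the spread differed widely. RPS13 (YDR064W), a gene of a body protein, had -0.13, -0.17, -0.24 and -0.12, the narrowest spread of the single-copy genes (mean -0.16 ± 0.05, 95% interval -0.44 to 0.11 in limma). RPS2 (YGL123W), whose protein lies at the entry of the messenger RNA, was also opposite to SLT2 on all arrays, with -0.12, -0.05, -0.35 and -0.08 (mean -0.15 ± 0.14). Neither had a positive value on any array.

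RPS20 (YHL015W) lay at the wide end. Its protein is a head protein that is ubiquitinated when ribosomes collide. The gene had 1.01, -0.33, -0.11 and -0.63 on arrays 1 to 4, and its mean of -0.01 ± 0.72 averages a large positive value with 3 negative ones. RPS12 (YOR369C) had 0.49, -0.18, 0.07 and -0.58 (mean -0.05 ± 0.45). RPS3 (YNL178W), which encodes a protein of the entry channel, had 0.23, -0.19, -0.05 and -0.40 (mean -0.10 ± 0.26). Both had their highest value on array 1 and their lowest on array 4, as RPS15 and RPS20 did.

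RPS31 (YLR167W), which is translated as a fusion to ubiquitin, had 0.18, -0.09, 0.01 and -0.79 (mean -0.17 ± 0.43). Array 4 gave its lowest value. The 26 measured genes not given array by array had means from -0.20 (RPS9A) to -0.03 (RPS26B). Array 1 was the highest of the 4 arrays for 24 of these 26 and above 0 for 23, and 22 of them were negative on all of arrays 2, 3 and 4.

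The paralogues were compared by subtracting, on each array, the value of the B copy from that of the A copy, which cancels anything that moves the whole array. Both copies were measured for 21 of 24 pairs. The copies mostly gave alike means: the median absolute difference was 0.04, with 5 pairs above 0.1 and a largest difference of 0.25. Between members of different families the median absolute difference of means was 0.07 over 1357 combinations. On arrays 1 to 4 the median absolute difference was 0.09, 0.06, 0.10 and 0.21 within pairs. Between families it was 0.21, 0.11, 0.16 and 0.24. On array 4 the differences within pairs were thus the widest, and nearly as wide as those between families. The A copy had the higher value in 12 pairs and the B copy in 9. Differences had 1 sign on all 4 arrays in 2 of the 21 pairs, RPS28 and RPS21, against 8.11% of combinations of members from different families. With 1 array left out, 1 sign was needed on 3 arrays only, an easier rule. The count was then 8 without array 4, 4 without array 3, and 3 without array 1 and also without array 2. The share of other combinations under that rule was not taken, and the 8.11% does not apply to it. An exact two-sided sign-flip permutation test over 4 arrays cannot give a p under 0.125, and over 2 cultures not under 0.5, so no pair could pass; the lowest p adjusted over 21 pairs was 0.955.

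RPS28A and RPS28B differed the most, and by nearly the same amount on each array. Rps28 is a small head protein, and in budding yeast RPS28B is known to limit its own messenger RNA through a decay route that uses Edc3. RPS28A (YOR167C) had 0.40, -0.06, -0.21 and -0.23, each value above that of RPS28B on the same array. The A copy exceeded the B copy by 0.25, 0.20, 0.22 and 0.33 on arrays 1 to 4 (mean 0.25 ± 0.06, exact permutation p = 0.125, the smallest 4 arrays allow). Between arrays RPS28A itself ranged from -0.23 to 0.40 and RPS28B from -0.56 to 0.15. Neither copy passed the test against untreated cells.

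RPS21 was the other pair with 1 sign. RPS21B (YJL136C) had 0.04, -0.20, -0.28 and -0.22 (mean -0.17 ± 0.14), and RPS21A lay below it by 0.09, 0.16, 0.01 and 0.30 on arrays 1 to 4. The mean of A minus B was -0.14 ± 0.12 (exact permutation p = 0.125), and array 3 gave almost no difference.

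The remaining pairs with wide differences changed sign between arrays. RPS27B (YHR021C) had -0.14, 0.13, -0.44 and -0.07 (mean -0.13 ± 0.23), and A minus B was 0.02, -0.28, 0.14 and -0.49. It was positive on both arrays with treated RNA on Cy3 and negative on both with it on Cy5. RPS25A (YGR027C) had 0.55, -0.28, 0.04 and -0.65 (mean -0.09 ± 0.51), close to RPS25B on arrays 1 to 3 and above it by 0.44 on array 4. RPS25 is a head protein known for its part in starting translation from internal entry sites of some viral RNAs.

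RPS7A and RPS7B, which encode a body protein known for its regulatory ubiquitination, also parted by dye. RPS7A (YOR096W) had -0.08, 0.14, -0.09 and -0.19 (mean -0.06 ± 0.14). RPS7B (YNL096C) had 0.05, -0.38, 0.04 and -0.51 (mean -0.20 ± 0.29). A minus B was -0.13 on both arrays 1 and 3, and 0.52 and 0.32 on arrays 2 and 4. At the other extreme RPS23, the pair that encodes the protein of the decoding site, had a mean difference of 0.00 ± 0.14.

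In 3 pairs a copy was missing, so no difference could be taken. RPS14B (YJL191W) had -0.08, -0.14, -0.19 and -0.02 (mean -0.11 ± 0.07). Rps14 is a platform protein known to hold back the splicing of the RPS14B transcript in budding yeast. RPS30B (YOR182C) had 0.16, -0.20, 0.63 and -1.10 (mean -0.13 ± 0.73), the widest spread of the 53 genes, and on array 3 RPS30A had 0.14. All 4 values of RPS14B lay opposite to SLT2, while those of RPS30B followed the dyes.

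Across the 21 pairs the A and B copies correlated most on array 1 (r = 0.83, Spearman's rho 0.88) and less on arrays 3 (r = 0.37), 4 (r = 0.20) and 2 (r = -0.04). Their means over the arrays correlated little (r = 0.15, Spearman's rho 0.20). These are descriptions across pairs that share an array and its normalization. The probe sequences were not used here, and the copies of a pair are near-identical in their coding parts, so signal may be shared between them and a true difference understated.

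**Figure D3:**
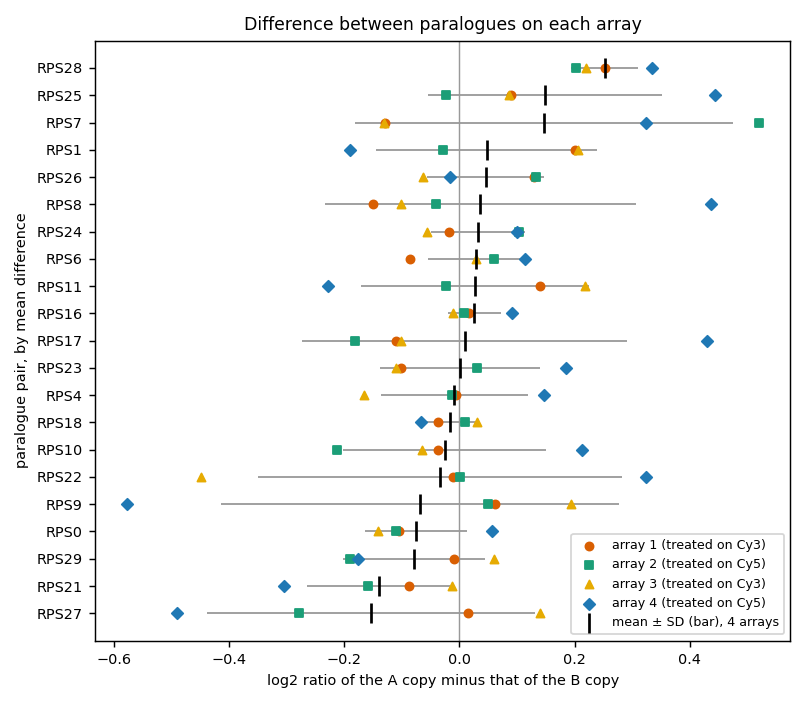
Log2 ratio of the A copy minus that of the B copy (x axis) for 21 paralogue pairs (y axis), on each array (coloured points) and as the mean ± SD of 4 arrays (black mark and grey bar). RPS28 lies between 0.20 and 0.33 on all arrays, whereas most pairs cross 0.

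Members were then compared between the dye orientations. Both arrays with treated RNA on Cy3 lay above both with it on Cy5 for 30 of 53 genes, against 28.1% of all ORFs, and the reverse held for 3 of 53, against 27.4%. By place these were 15 of 21 head genes, 11 of 27 body genes and 4 of 5 platform genes for the first order. Array 1 was the highest for 42 of 53 (40.4% of all ORFs) and array 4 the lowest for 33 of 53 (30.9%).

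The dye difference was the mean of the Cy3 arrays minus that of the Cy5 arrays, divided by 2. It was positive for 44 of 53 genes, against 49.1% of all ORFs, and had a median of 0.13 against 0.00. It was widest for RPS30B (0.52), RPS20 (0.47), RPS19B (0.46), RPS25B (0.44) and RPS25A (0.38). RPS27B lay at the opposite end with -0.16. No member passed a test of this difference (limma, lowest adjusted p = 0.244), and neither did any of the 4543 ORFs (0%). At an unadjusted p under 0.05 there were 8 of 53 members, against 13.2% of all ORFs. When array 1 was paired with 2 and array 3 with 4, 12 of 53 members passed in limma, against 20.5% of all ORFs, and with robust empirical Bayes 3 of 53 did, against 3.74%.

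The members thus differed from each other more by dye orientation than in their mean: the SD among the 53 genes was 0.15 for the dye difference and 0.07 for the mean. Across all ORFs the SDs were 0.21 and 0.35. Among the 2512 ORFs whose mean lay within the members' range the SD of the dye difference was 0.19, so it was no wider among the members. Over the 53 members, arrays of the same dye orientation correlated above 0 (r = 0.43 for arrays 1 and 3, r = 0.30 for 2 and 4) and arrays of opposite orientation below 0 (r from -0.59 to -0.17). The 76 large subunit genes gave r from 0.44 to 0.55 and from -0.65 to -0.45. Over all ORFs every pair of arrays correlated above 0 (r from 0.09 to 0.75). Among those 2512 ORFs, arrays of opposite orientation had r from -0.71 to 0.04. For the same orientation, arrays 1 and 3 had r = -0.21 there and arrays 2 and 4 had r = 0.32. Choosing ORFs by a narrow range of means in itself lowers correlations between arrays. These correlations describe genes that share an array, and are not replicates.

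The median dye difference was highest in members with short gene spans, with ranges that overlapped widely. The 13 members with a gene span under 500 bp in the RefSeq gene table (assembly R64, introns included) had a median of 0.21 (range -0.06 to 0.47), the 16 with a span from 500 bp to below 800 bp had 0.13 (-0.16 to 0.52) and the 24 with 800 bp or more 0.11 (-0.05 to 0.46). Over the 53 members Spearman's rho between span and dye difference was -0.35, over the 76 large subunit genes -0.46 and over 4377 ORFs with a span -0.24. The median span was 678 bp for head genes and 874 bp for body genes. What part length, place in the subunit or signal has in the dye difference was not tested.

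**Figure D4:**
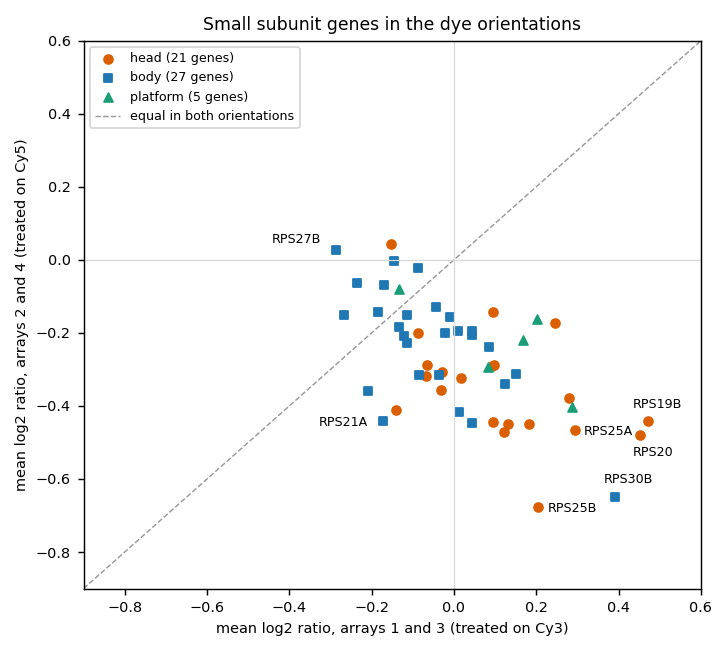
Mean log2 ratio of each of 53 small subunit genes on the arrays with treated RNA on Cy3 (x axis) and on Cy5 (y axis), coloured by place in the subunit. Of these genes 44 lie below the dashed line of equal values, RPS30B the farthest.

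Other genes of the pathway were taken from 5 lists. Large subunit proteins behaved much like those of the small subunit. Of 76 measured genes limma called 0, and 0 were at an unadjusted p under 0.05, against 19.3% of all ORFs. Opposite to SLT2 lay 75 of 76 means, and the median of the large subunit genes was -0.12. Their array medians were 0.09, -0.20, -0.16 and -0.23. RPL40B was the lowest (-0.26 ± 0.20) and RPL37A the highest (0.00 ± 0.31).

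None of 17 regulators of ribosomal protein genes passed (limma). At an unadjusted p under 0.05 there were 3 of 17 (17.6%), no more than the 19.3% of all ORFs, and not all 3 are given below. TOD6, which encodes a repressor of ribosome assembly genes, had -0.57, -0.02, -0.35 and -0.41 (mean -0.34 ± 0.23, adjusted p = 0.160). SFP1, an activator of ribosomal protein genes, had -0.42, -0.25, -0.42 and -0.09 (mean -0.30 ± 0.16, adjusted p = 0.227). Both lay opposite to SLT2 on all 4 arrays.

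RAP1, whose product binds upstream of most ribosomal protein genes, was also negative on each array, at -0.36, -0.24, -0.23 and -0.18 (mean -0.25 ± 0.08, adjusted p = 0.311). Its co-regulators FHL1 (-0.15 ± 0.17) and IFH1 (-0.17 ± 0.30) had mixed signs. YAK1, a kinase known to act against protein kinase A, had 0.12, 0.28, 0.19 and 0.50 (mean 0.27 ± 0.17, adjusted p = 0.273). The list as a whole had a median of -0.04, and 11 of 17 means lay opposite to SLT2, against 56.7% of all ORFs. Only TOD6, SFP1 and RAP1, 3 of 17, were opposite to SLT2 on all arrays, against 15.3% of all ORFs. Most regulators given here were picked with their values in view, so they do not stand for the list. On the side of SLT2 on all arrays were 4 of 17 regulators, TOR2, YAK1 and TPK2 among them, against 13.1% of all ORFs.

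Genes whose products work on the 40S subunit differed by list. Partners in translation (15 genes) had 0 calls in limma, 0 at an unadjusted p under 0.05, with a median of -0.14. Among them ASC1, the 40S protein that stands outside the RPS series, had -0.25, -0.15, -0.48 and -0.20 (mean -0.27 ± 0.15), and TIF11, the gene of initiation factor eIF1A, was the highest and split by dye, with 0.89, -0.51, 0.33 and -0.74. Chaperones of 40S proteins and late assembly factors (12 genes) had 0 calls in limma, and 6 of 12 were under 0.05 before adjustment, against 19.3% of all ORFs. The median was -0.28, the lowest of the 5 lists. RIO1, an assembly kinase gene, had -0.40, -0.61, -0.47 and -0.46 (mean -0.48 ± 0.09, adjusted p = 0.0576), and LTV1 was the highest (-0.04 ± 0.25). The 30 measured proteins of the small subunit of the mitochondrial ribosome likewise had 0 calls in limma, 0 genes at an unadjusted p under 0.05. Means centred on -0.05 (the median), from RSM23 (-0.26 ± 0.18) to RSM19 (0.15 ± 0.27).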

How the data were processed

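The authors deposited 1 table of log2 ratios (base and numerator not stated, read as log2), already normalized in a way not given in the sources used here. No intensities were used, so signal over background is unknown, and precision is limited by how few arrays there are. Each array's sign was turned by its labelled dyes and set so that SLT2 is positive, a choice made with its values known. The table has 2 control rows, left out. All 56 members matched the RefSeq R64 gene table by locus tag. In limma 3.58.1 (R 4.3.3) arrays of a culture were averaged (n = 2), both pairings of opposite dyes were fitted, each ORF kept its larger p, and Benjamini-Hochberg adjustment ran over 4543 ORFs at 0.05. The fits were also run on simulated data with 4 independent arrays per ORF. Those data held no culture shared by arrays, so they do not show how the fits behave under the true pairing. The labels call the cultures different without saying how far apart they were grown, so p-values speak for these 2 cultures alone. The variance of each ORF is drawn in limma towards that of all 4543 ORFs, so p-values reflect this pooled variance more than the gene's own spread. RPS13 (SD 0.05 over 4 arrays) and RPS19B (SD 0.54) had intervals of about equal width, -0.44 to 0.11 and -0.26 to 0.29. The values of RPS19B followed the dyes, so averaging arrays of opposite dye removed most of its spread before the fit. Their equal widths therefore do not show the effect of the pooled variance alone. Members given array by array were the 5 highest and 5 lowest means, the 5 widest pairs, pairs with a missing copy, single-copy genes, those at an unadjusted p under 0.05 and those with 1 array far from the other 3. RPS23, RPS26B, RPS9A, RAP1, FHL1, IFH1, SFP1, YAK1, TOR2 and TPK2 do not follow this rule and were picked with their values in view. Members and lists were chosen with earlier results of these data known. Sequences were not used here, and values of some single genes are not reported here.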

Additional observations from a re-analysis of the deposited data

Results flagged for a closer look

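One array lay far from the other 3 for 5 of 53 genes and 1 of 21 pairs. RPS26A had 0.52 on array 1 and -0.17 to -0.12 elsewhere. RPS6B, whose protein is phosphorylated under TORC1 control, had 0.12 on array 1 and -0.32 to -0.29 elsewhere. RPS18A had 0.14 on array 1 and -0.33 to -0.27 elsewhere, and RPS23A had 0.31 on array 1 and -0.24 to -0.17 elsewhere. RPS22B stood apart on array 4, with -0.53 there and -0.10 to -0.03 elsewhere. RPS17A exceeded RPS17B by 0.43 on array 4 and lay below it by 0.10 to 0.18 elsewhere. By chance about 1 in 20 sets of 4 values would stand out like this, and 85 were checked (genes, pairs, lists and groups). The part of array 1 or array 4 as such was not tested.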

How the results depend on the processing

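The count of members past the test was 0 on both sides as reported and in all alternatives but 1. When array 1 was paired with 4 and array 2 with 3, 3 members passed, all named ones opposite to SLT2 (RPS21A, RPS27A and RPS28B), and 17 genes of the other lists did. By list they were 2 of 76 large subunit genes, 1 of 15 partners in translation and 2 of 30 mitochondrial genes. Chaperones and late assembly factors gave 7 of 12, and the 17 regulators 2 with SLT2 and 3 opposite. Of all ORFs 13.2% passed with SLT2 in that pairing and 13.9% opposite. Genes of the other lists past the test numbered 3 when the 4 arrays were taken as independent with a dye term, for ORFs with 3 or more values and with robust empirical Bayes, and 1 without a dye term, with quantile normalization and at an adjusted p under 0.1. All of these outside the pairing of 1 with 4 were chaperones and late assembly factors. The members' median kept its sign in every alternative and ran from -0.20 to -0.05 over fits without 1 array, with 41 to 52 means opposite to SLT2. Pairs of 1 sign numbered 3 to 8 without 1 array, against 2, but with 3 arrays 1 sign is easier to reach than with 4. Members with a dye difference numbered 12 when array 1 was paired with 2 and array 3 with 4, and 3 with robust empirical Bayes, against 0, while all ORFs with one numbered 932 and 170, against 0. Over all ORFs, 207 calls lay with SLT2 and 63 opposite, against 123 and 8 with each array centred 598 and 631 with array 1 paired with 4, 319 and 193 with 4 independent arrays and a dye term, 338 and 189 for ORFs with 3 or more values and 358 and 225 with robust empirical Bayes. No paired analysis was possible because all arrays belong to 1 group and each already compares treated with untreated RNA. Which pairing is the true one is not given, and the cause of these changes was not tested. Fits without 1 array took the other arrays as independent with a dye term.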
